A study of Mus musculus with 6 samples.

Results

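Switch junctions of B cells without ATM were compared with those of wild-type B cells. The comparison took the 2 libraries labelled ATM knockout (ATM KO, genotype ATM-/-) and the 2 labelled wild type, 4 of the 6 libraries of the series, and every junction listed in the immunoglobulin heavy chain locus (IgH). That gave 2842 of the 4214 IgH junctions listed over all 6 libraries. The remaining 2 libraries, ATM RX/RX, entered only the estimate of the spread between libraries. Both groups were CD43-negative spleen B cells of 129 mice, cultured for 4 days in IL-4 at 20 ng/mL plus 1 ng/mL of anti-CD40. The labels do not say how the ATM-/- allele was made, whether it acts in B cells only, or whether each library came from a separate animal. The p-values therefore measure only how these libraries vary, and that variation may be technical. Junction sequencing measures neither the Atm gene nor any cell marker, so the genotype and cell type labels could not be checked.

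Class switching replaces the constant gene used by the antibody heavy chain. The deaminase AID starts breaks in the repetitive switch region Sμ and in a second switch region further downstream, and the ends are joined with loss of the DNA between them. Sγ1 lies before the IgG1 constant gene and Sε before the IgE constant gene, and anti-CD40 with IL-4 induces both isotypes. ATM, a kinase activated at double-strand breaks, phosphorylates histone H2AX and 53BP1, proteins that hold ends together and shield them from resection. Ends joined by classical non-homologous end joining are typically blunt or share few bases, whereas resected ends can be joined through longer shared stretches (microhomology).

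High-throughput genome-wide translocation sequencing (HTGTS) reads such joins outward from a fixed Sμ primer, the bait. The first primer below carries biotin for linear amplification, and the nested primer sets where every read begins. Both are printed because they define the bait. Distances in Sμ are taken from the position where the bait alignment of each read ends, not from the primers.
biotinylated primer: cagacctgggaatgtatggt
nested primer: cacacaaagactctggacctc
In the distal part of mm9 chromosome 12 that was searched, which holds the switch regions, each matches at 1 place on the minus strand, from 114664982 to 114665001 and from 114664889 to 114664909. This is upstream of Ighm, the μ constant gene (114659078 to 114660941), and outside any gene annotated in GENCODE. The nested primer was read without a mismatch in 97.6% of the junction reads. Because IgH is transcribed from the minus strand, a join that deletes the DNA between bait and prey reads on in minus orientation. A plus-orientation join is an inversion or a join between chromosomes.

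Junction structure was taken from the read positions at which the bait alignment ends and the prey alignment starts. Extra bases between them are an insertion, bases shared by both are microhomology, and a joint with neither is blunt. For each genotype and structure, the Sμ junction in the middle of the list is shown to make these classes visible. Bait sequence comes first, prey sequence last, and capitals mark inserted or shared bases.
wild type insertion: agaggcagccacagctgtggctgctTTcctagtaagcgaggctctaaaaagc
wild type blunt: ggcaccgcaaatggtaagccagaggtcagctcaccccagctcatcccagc
wild type microhomology: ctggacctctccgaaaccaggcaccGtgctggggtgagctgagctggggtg
ATM KO insertion: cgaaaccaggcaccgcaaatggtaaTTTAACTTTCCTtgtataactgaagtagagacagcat
ATM KO blunt: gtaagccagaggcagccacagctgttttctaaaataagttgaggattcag
ATM KO microhomology: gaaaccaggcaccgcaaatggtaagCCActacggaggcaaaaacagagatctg
In the blunt reads the join lies after base 25. The wild-type insertion is 2 bp long at 807 bp from the bait end, and the ATM KO insertion is 12 bp long at 316 bp. The wild-type microhomology is 1 bp long at 2634 bp, and that of ATM KO is 3 bp long at 5889 bp. These reads illustrate the classes and support no comparison.

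The authors counted 904 and 507 junctions for wild type and 414 and 1849 for ATM KO, of which 721, 391, 298 and 1432 were listed in IgH. ATM KO replicate 2 thus holds most of the ATM KO junctions, and its list has 14 further IgH lines that are empty. The bait part of the read had a median of 56 to 59 bp in the 4 libraries. Between 2.56% and 6.04% of IgH junctions of a library had a match in another of the 6 libraries. Intervals and limits given below cover counting error only.

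Counted jointly by region, orientation and structure, the ATM KO libraries lost minus-orientation Sε joins of every structure and gained plus-orientation Sμ joins of most structures. Of 30 classes tested, 9 passed (30.0%), 5 higher (16.7%) and 4 lower (13.3%) in ATM KO. The 4 lower classes were the 4 structures of minus-orientation Sε, and 3 of the 5 higher ones were plus-orientation Sμ. These are shares of the IgH junctions recovered, so a lower share of one class raises the others, and joins per cell were not measured.

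Blunt minus-orientation Sε joins made up 10.8% and 7.16% of IgH junctions in the wild-type libraries and 1.01% and 1.61% in those of ATM KO. The libraries of the groups lay far apart, and the share fell by 2.64 ± 0.36 log2 units (SE; edgeR adjusted p = 0.00119). Minus-orientation Sε joins with 1 to 2 bp of microhomology held 16.4% and 10.7% against 2.68% and 2.79%, and fell by 2.32 ± 0.46 (SE, edgeR adjusted p = 0.00399). The fitted falls of Sε insertions and of Sε microhomology of 3 bp or more were 2.12 ± 0.47 and 1.87 ± 0.42 (SE, edgeR adjusted p = 0.0053 and 0.0054). Minus-orientation Sε joins are those that include the deletional joins to IgE.

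In plus-orientation Sμ, 3 structures rose and blunt joints did not pass. Microhomology of 3 bp or more went from 2.91% and 2.30% of IgH junctions in wild type to 9.40% and 9.50% in ATM KO, 3.52-fold by the fit (log2 1.82 ± 0.30 SE, edgeR adjusted p = 0.00271). Microhomology of 1 to 2 bp went from 1.66% and 2.56% to 6.71% and 7.61%, 3.62-fold (log2 1.86 ± 0.37 SE, edgeR adjusted p = 0.00399). Insertions went from 1.53% and 2.05% to 5.03% and 7.12%, 3.71-fold (log2 1.89 ± 0.38 SE, edgeR adjusted p = 0.00399). In each of these classes both ATM KO libraries stood above both wild-type libraries. That held for blunt joints as well, and the groups did not overlap in most of the 30 classes, so it does not set these classes apart. Blunt plus-orientation joins held 2.08% and 1.79% in wild type and 3.02% and 2.79% in ATM KO (log2 0.53 ± 0.36 SE, edgeR adjusted p = 0.239).

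In minus-orientation Sμ only microhomology of 3 bp or more passed. It held 3.88% and 6.65% of wild-type IgH junctions and 16.4% and 11.0% of those of ATM KO (log2 1.38 ± 0.34 SE, edgeR adjusted p = 0.009). Blunt minus-orientation Sμ joins, at 6.66% and 6.39% against 4.03% and 4.40%, did not pass on this scale (log2 -0.61 ± 0.28 SE, edgeR adjusted p = 0.108). The ninth class was plus-orientation microhomology of 3 bp or more elsewhere in IgH. It counted 1 and 0 junctions in wild type and 5 and 20 in ATM KO (log2 3.78 ± 0.80 SE, edgeR adjusted p = 0.00493). With 1 wild-type junction the size of this rise is poorly known. No Sγ1 class passed. The largest Sγ1 value was that of plus-orientation microhomology of 3 bp or more, with 0.693% and 0.512% in wild type and 1.01% and 2.37% in ATM KO (log2 1.67 ± 0.60 SE, edgeR adjusted p = 0.0623), which passed under 5 of 13 alternatives. Minus-orientation Sγ1 fitted values ran from -0.97 to 0.39 on the log2 scale. Of the 9 calls, DESeq2 kept only blunt minus-orientation Sε. Without wild-type replicate 1, edgeR lost Sε insertions, long Sε microhomology and long minus-orientation Sμ microhomology (adjusted p = 0.0668, 0.0987 and 0.109), and without ATM KO replicate 2 it lost plus-orientation Sμ insertions (adjusted p = 0.0631).

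**Figure D1:**
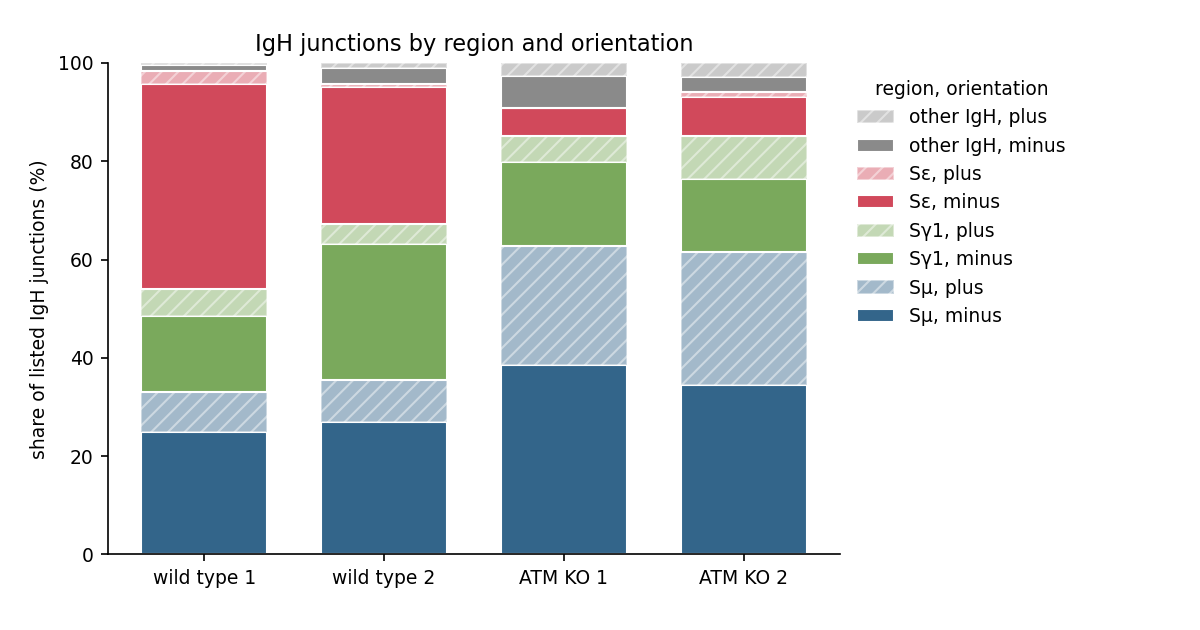
Stacked bars give the percent of listed IgH junctions in each region and orientation, 1 bar per library; hatched, paler segments are plus orientation. Minus-orientation Sε shrinks from the wild-type to the ATM KO libraries, and both Sμ segments widen.

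The higher plus-orientation share in ATM KO was smaller, but still present, when the mix of regions was held fixed. Over Sμ, Sγ1 and Sε, plus-orientation joins made up 16.5% and 13.9% in wild type and 32.5% and 39.2% in ATM KO, a difference of 20.6 percentage points. Sε joins are rarely in plus orientation (19 of 320 and 2 of 111 in wild type, 0 of 17 and 15 of 128 in ATM KO). They held 44.4% and 28.4% of IgH junctions in wild type and 5.70% and 8.94% in ATM KO. With each library's regional shares weighted by the mean wild-type mix of regions, the values were 18.0% and 12.8% against 20.1% and 30.1%. The difference was then 9.67 points, with an SD of 3.66 in wild type and 7.04 in ATM KO (n = 2 each). No ATM KO library fell among the wild-type values, and an exact permutation test gave p = 0.3333, the smallest that 2 against 2 libraries allow, so this test cannot reach 0.05. The value rests largely on ATM KO replicate 2: without it the difference was 4.69 points, and without ATM KO replicate 1 it was 14.7. It also depends on the weights: with the mean ATM KO mix of regions the difference was 14.1 points.

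Region by region, the plus share was most even between replicates in Sμ. There it was 24.8% (95% Clopper-Pearson interval 19.4 to 30.8) and 24.5% (17.6 to 32.5) in wild type. In ATM KO it was 38.5% (31.5 to 45.9) and 43.9% (40.6 to 47.2). In Sγ1 the wild-type values of 25.8% and 12.9% and the ATM KO values of 23.9% and 37.4% overlapped.

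Within a given region and orientation, blunt joints fell in Sμ in both orientations, and long microhomology rose in minus-orientation Sμ and Sγ1. Of 27 structure classes, each counted as a share of its own region and orientation, 4 passed (14.8%), 2 higher (7.41%) and 2 lower (7.41%). For this set edgeR found no spread beyond counting error (common dispersion 1.78e-08). Its F test also rescales that error, and the SEs it gave can lie below counting error, so these p-values may be too small. With wild-type replicate 1 left out, 0 classes passed in edgeR, with 5 at an unadjusted p under 0.05. Without wild-type replicate 2 there were 2, and without ATM KO replicate 2 likewise 2. DESeq2 called 1 of them, blunt minus-orientation Sμ joints. With TMM factors 0 higher and 4 lower classes passed, as that scaling moved the median log2 change of all classes from 0.13 to -0.17. Both blunt Sμ classes passed there too, whereas long microhomology was at 0.53 in minus-orientation Sμ and 0.45 in minus-orientation Sγ1 (edgeR adjusted p = 0.0641 and 0.184).

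Blunt joints in Sμ fell in both orientations. In minus orientation they made up 26.8% and 23.8% of wild-type junctions, against 10.4% and 12.7% in ATM KO. The groups were well apart, and the share fell by 1.06 ± 0.18 log2 units (SE; edgeR adjusted p = 0.000256). In plus orientation they made up 25.4% and 20.6% against 12.5% and 10.3%, and fell by 1.14 ± 0.30 (SE, edgeR adjusted p = 0.0234). The plus-orientation call was lost without wild-type replicate 1, wild-type replicate 2 or ATM KO replicate 2 (edgeR adjusted p = 0.403, 0.0611 and 0.508) and with the replicate number as a block (0.0773), while the fitted value stayed between -1.25 and -0.91 with 1 library left out. Both differences had an exact permutation p of 0.3333, and the difference in percentage points was -13.7 in minus and -11.6 in plus orientation. The difference between orientations was 1.39 and 3.22 points in wild type and -2.07 and 2.39 in ATM KO. These values overlapped (exact permutation p = 0.667), so a dependence of the blunt loss on orientation was not detectable with these libraries.

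In Sμ, long microhomology passed in minus orientation only. Overlaps of 3 bp or more made up 15.6% and 24.8% of minus-orientation junctions in wild type and 42.6% and 31.9% in ATM KO, a rise of 0.83 ± 0.16 log2 units (SE; edgeR adjusted p = 0.000867). In plus orientation they were at 35.6% and 26.5% in wild type and 38.9% and 35.1% in ATM KO (log2 0.15 ± 0.22 SE, edgeR adjusted p = 0.789). The wild-type values rest on 59 and 34 plus-orientation junctions. Whether the change itself differed between orientations was not tested. Microhomology of 1 to 2 bp did not pass in either orientation (edgeR adjusted p = 0.736 and 0.708). The minus-orientation rise was 0.45 with an edgeR adjusted p of 0.39 without wild-type replicate 1, the library with the lowest share.

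Insertions in Sμ made up 14.5% and 18.1% of minus-orientation junctions in wild type and 13.9% and 18.2% in ATM KO, with overlapping libraries. In plus orientation they made up 18.6% and 23.5% against 20.8% and 26.4%. Insertions of 10 bp or more held 5.08% and 5.88% of plus-orientation Sμ junctions in wild type and 9.72% and 11.4% in ATM KO (3 and 2 junctions against 7 and 44). The median plus-orientation insertion was 1.0 and 2.5 bp in wild type and 9.0 and 8.0 bp in ATM KO, a measure chosen after the values were seen and not tested.

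**Figure D2:**
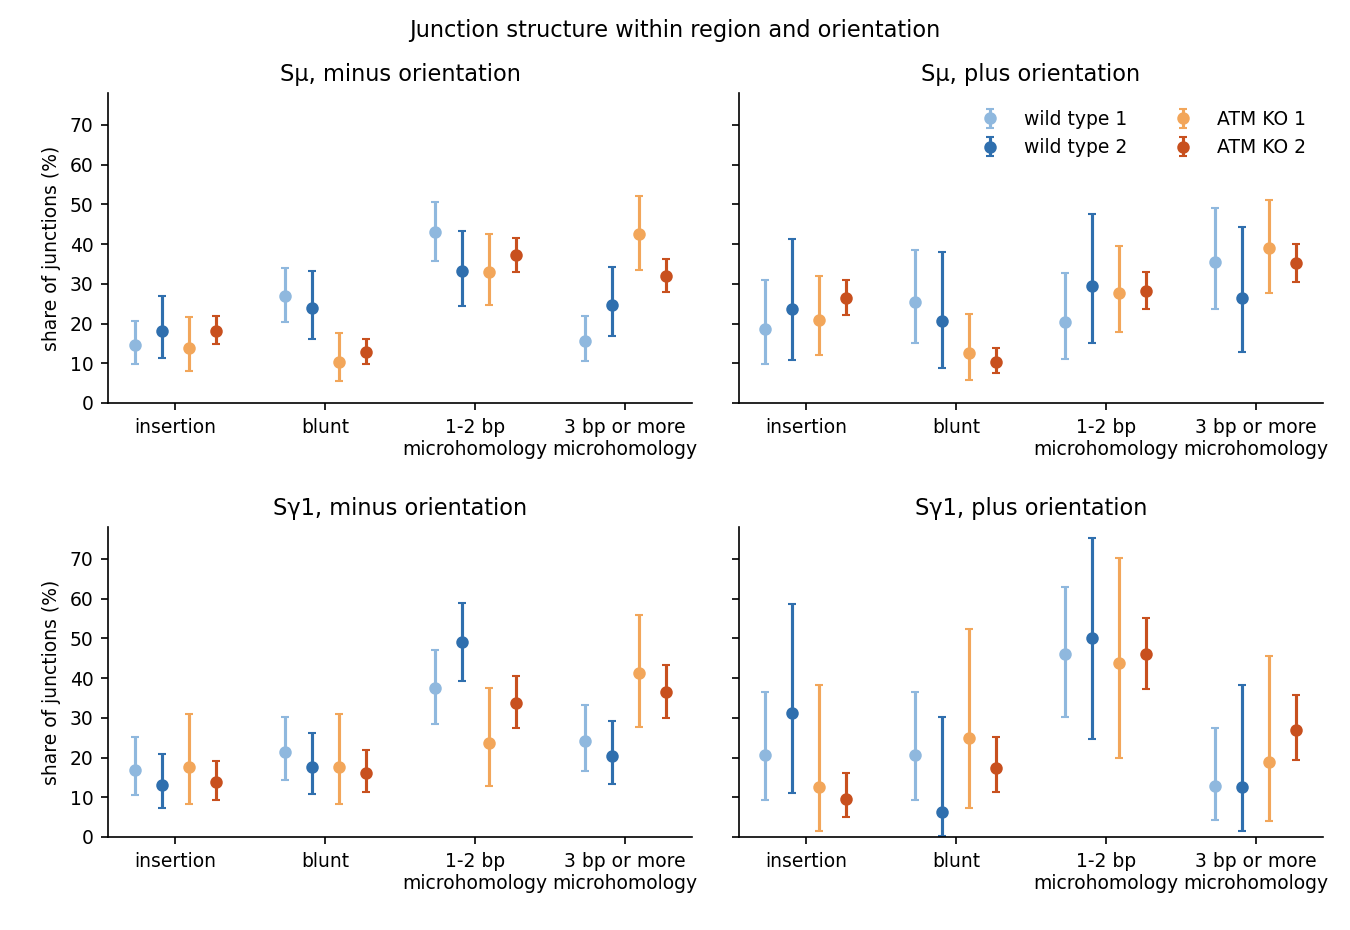
Points give the percent of junctions with each structure within Sμ (top) and Sγ1 (bottom) by orientation, 1 point per library, with 95% Clopper-Pearson intervals. In Sμ the blunt points of ATM KO lie below those of wild type in both orientations, although some intervals of the groups overlap. In Sγ1 the blunt points of the groups overlap as well as their intervals.

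**Figure D3:**
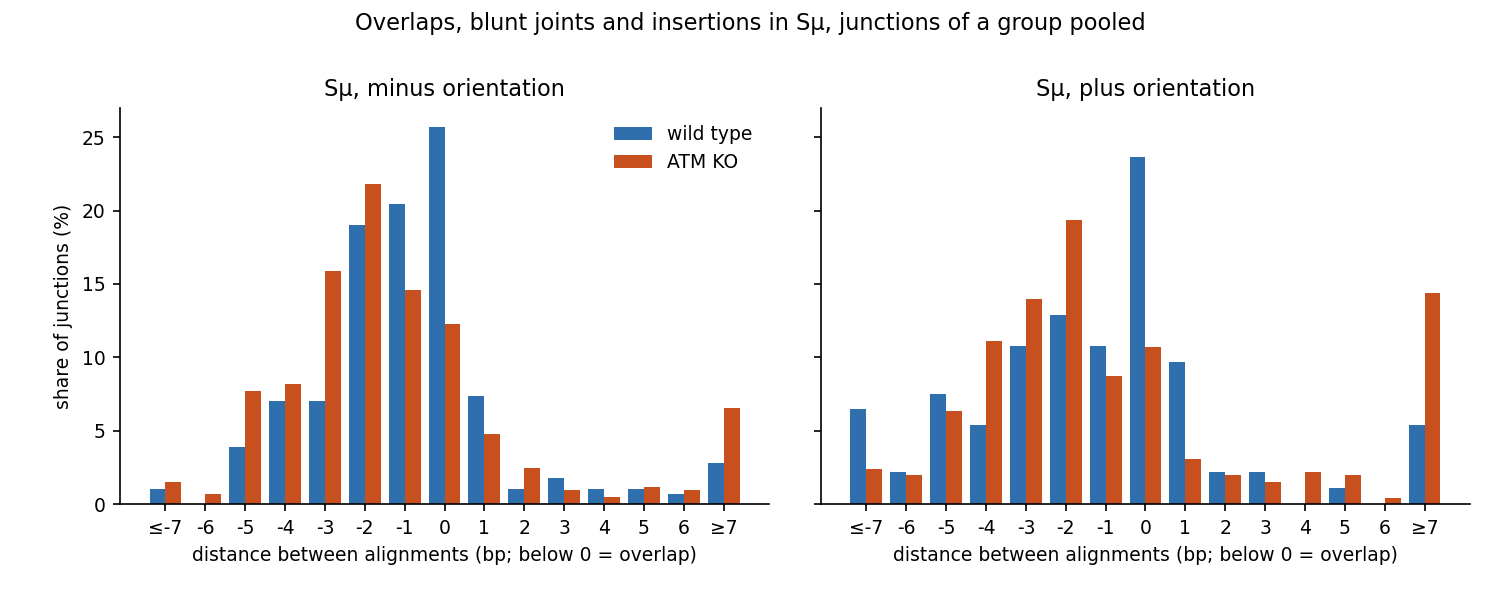
Bars give the percent of Sμ junctions at each distance between bait and prey alignments (overlap below 0, insertion above 0, ends pooled at 7 bp), with the 2 libraries of a group pooled, so that ATM KO is mostly replicate 2. The bar at 0, blunt joints, is lower in ATM KO in both orientations.

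In Sγ1, 1 structure class passed. Minus-orientation overlaps of 3 bp or more made up 24.1% and 20.4% in wild type and 41.2% and 36.5% in ATM KO, a rise of 0.75 ± 0.19 log2 units (SE; edgeR adjusted p = 0.0217). This call was lost without wild-type replicate 1 (0.0945), wild-type replicate 2 (0.236) or ATM KO replicate 2 (0.217), all edgeR adjusted p. It was also lost when long microhomology was taken as 2 bp or more (log2 0.42, edgeR adjusted p = 0.107). Minus-orientation overlaps of 1 to 2 bp were at 37.5% and 49.1% against 23.5% and 33.6% (edgeR adjusted p = 0.175). Blunt joints made up 21.4% and 17.6% in wild type and 17.6% and 16.1% in ATM KO, and insertions 17.0% and 13.0% against 17.6% and 13.7%, neither past the threshold. In plus-orientation Sγ1, insertions were at 20.5% and 31.3% against 12.5% and 9.52%, and overlaps of 3 bp or more at 12.8% and 12.5% against 18.8% and 27.0%. Neither passed (edgeR adjusted p = 0.141 and 0.188), and 16 junctions in each of 2 libraries limit what can be seen. Blunt joints there counted 8 of 39 and 1 of 16 against 4 of 16 and 22 of 126, and overlaps of 1 to 2 bp at 46.2% and 50.0% against 43.8% and 46.0%.

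The Sε joins that remained in ATM KO showed no structure class past the threshold. In minus orientation blunt joints made up 25.9% and 25.7% in wild type and 17.6% and 20.4% in ATM KO (log2 -0.37 ± 0.24 SE, edgeR adjusted p = 0.441), with 17 and 113 ATM KO junctions behind them. Overlaps of 3 bp or more were at 17.9% and 15.6% against 17.6% and 23.9%, overlaps of 1 to 2 bp at 39.2% and 38.5% against 47.1% and 35.4%, and insertions at 16.9% and 20.2% against 17.6% and 20.4%. In plus orientation Sε held 19, 2, 0 and 15 junctions, too few for shares. The 0 of 17 in ATM KO replicate 1 allows a plus share of up to 17.6%.

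With region and orientation both held at the wild-type mix, blunt joints made up 24.8% and 21.9% in wild type and 15.6% and 16.3% in ATM KO, a difference of -7.43 points, against -9.63 points unweighted. Overlaps of 1 bp or more made up 58.5% and 59.2% in wild type and 67.7% and 65.4% in ATM KO, a difference of 7.69 points, against 9.19 unweighted. Neither measure overlapped between the groups (exact permutation p = 0.3333 for both). With the mean ATM KO mix as weights the differences were -9.04 points for blunt joints and 9.43 points for overlaps, the latter above the unweighted value. The sizes depend on the definition: counting joints within 1 bp of blunt on either side gave -16.6 points. Counting overlaps of 2 bp or more gave 13.2 points, and overlaps of 4 bp or more gave 6.83 points. Plus-orientation Sε was left out of these sums because ATM KO replicate 1 has no such junction.

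**Figure D4:**
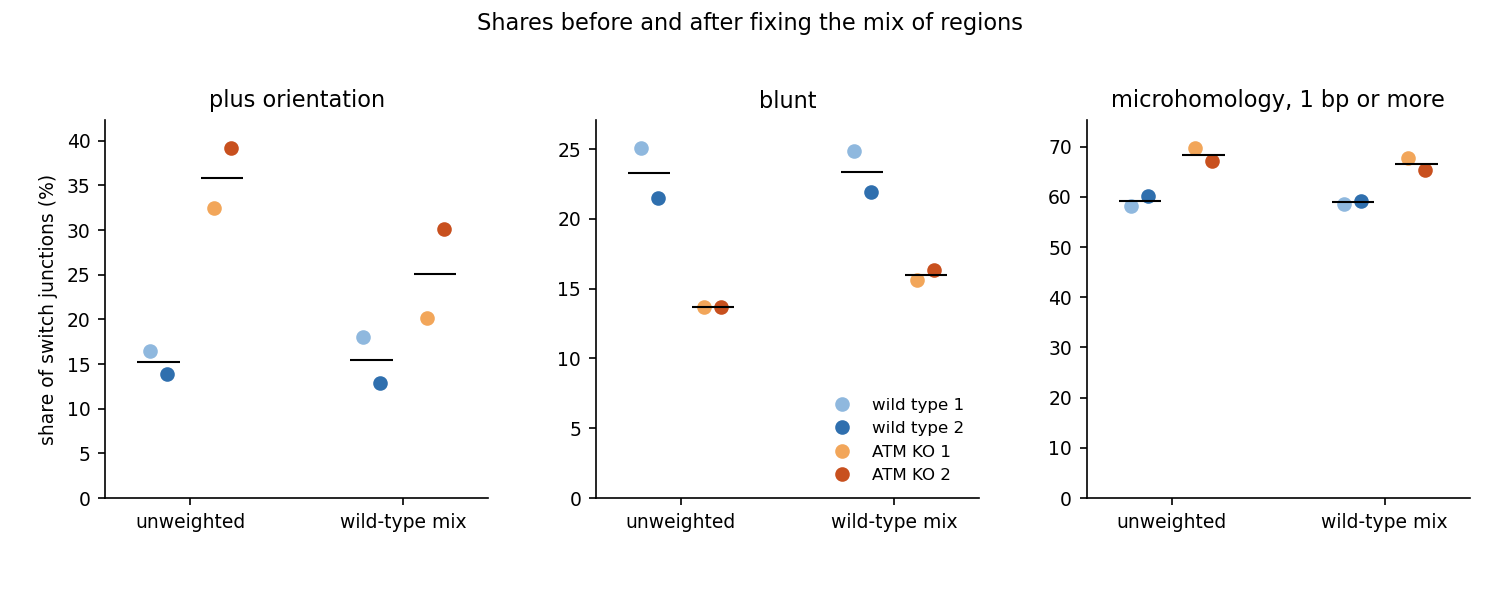
Points are libraries and short lines group means, for the percent of switch junctions in plus orientation, blunt, or with microhomology, as counted and with regional shares weighted by the wild-type mix. Under the wild-type mix the gap in plus-orientation share narrows from 20.6 to 9.67 points, and the gaps in structure narrow less. The sizes under the mean ATM KO mix differ and are not drawn.

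The AGCT motif, a favoured AID target, recurs through switch repeats. Of the overlaps of 3 bp or more in Sμ, the 8 with the highest totals over the 4 libraries are given, a ranking weighted towards ATM KO, which has more junctions. AGCTG made up 1.68% and 1.44% of wild-type Sμ junctions (4 and 2) and 5.88% and 2.15% of those of ATM KO (11 and 19). AGC counted 3 and 3 in wild type and 10 and 19 in ATM KO. Of these sequences GCTG was the most frequent in wild type, with 5 and 6 junctions against 4 and 11 in ATM KO. CAG made up 2.10% and 1.44% in wild type and 1.60% and 1.81% in ATM KO, and TGG 1.68% and 1.44% against 1.07% and 1.13%, with no gain in share. AGCT counted 2 and 2 against 2 and 13. GCT and CCAG were each seen 0 times in wild type, with 5 and 14 and with 5 and 11 junctions in ATM KO. No sequence was tested.

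As shares of all Sμ junctions, 2 minus-orientation bins fell and 1 plus-orientation bin near the bait rose in ATM KO. Of 45 bins of 1000 bp by orientation, each as a share of its region, 6 passed (13.3%), 4 higher (8.89%) and 2 lower (4.44%). Such a share counts both orientations of the region, so a higher plus share alone lowers minus bins and raises plus bins. The bin calls therefore do not tell a shift of position from the change in orientation. Coordinates are those of the authors' build, mm9 with the IgH switch segment exchanged for 129 sequence. With DESeq2 no bin passed (0 of 45, and 1 had an unadjusted p under 0.05). In edgeR 0 passed without wild-type replicate 1, wild-type replicate 2 or ATM KO replicate 2, and the replicate number as a block left 1. With TMM factors 0 higher and 5 lower bins passed, the median log2 change of all bins moving from 0.19 to -0.23. The 2 lower bins named below passed there as well, and the 4 higher ones kept their sign without passing.

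The minus-orientation bin with the highest wild-type share, 114667001 to 114668000, held 20.2% and 22.3% of wild-type Sμ junctions and 13.4% and 8.50% of those of ATM KO. It fell by 1.12 ± 0.28 log2 units (SE; edgeR adjusted p = 0.00182), and without ATM KO replicate 2 the value was -0.65. Its neighbour from 114666001 held 9.24% and 6.47% against 6.42% and 3.06%, so that ATM KO replicate 1 lay next to wild-type replicate 2. It fell by 1.12 ± 0.40 (SE, edgeR adjusted p = 0.0424), and the value was -0.36 without ATM KO replicate 2 and -0.78 without wild-type replicate 1. The next bin towards the bait, from 114668001, held 18.5% and 20.1% against 16.0% and 19.5%, with no change called in minus orientation (edgeR adjusted p = 0.876). In plus orientation the same bin held 8.40% and 6.47% in wild type and 17.1% and 20.3% in ATM KO, a rise of 1.34 ± 0.31 log2 units (SE; edgeR adjusted p = 0.00144). Whether the orientations differed in this bin was not tested.

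The span from the 5th to the 95th percentile of minus-orientation Sμ joins was 4057 and 3761 bp in wild type and 5501 and 5261 bp in ATM KO. Joins over 3000 bp from the bait made up 18.4% and 15.2% of minus-orientation Sμ joins in wild type and 36.5% and 29.3% in ATM KO. In plus orientation the same zone held 8.47% and 14.7% against 6.94% and 7.24%. From 1000 to 3000 bp lay 48.0% and 47.6% of minus-orientation Sμ joins in wild type and 35.7% and 26.5% in ATM KO. Within 1000 bp lay 44.1% and 32.4% of plus-orientation Sμ joins in wild type and 45.8% and 43.2% in ATM KO, with overlapping groups. The distance zones were set after the values were seen and carry no test. The median distance did not show this spread. In minus orientation it was 1328 and 1239 bp in wild type and 1975 and 1177 bp in ATM KO, with overlapping groups (exact permutation p = 1.0), and without ATM KO replicate 1 the sign turned. In plus orientation it was 912 and 783 bp against 760.5 and 680.0 bp, without overlap (exact permutation p = 0.3333). That difference of -127.25 bp was -62.75 without wild-type replicate 1, and -342.5 without junctions matched in another library.

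Blunt shares by distance zone are a description as well. Between 1000 and 3000 bp from the bait, blunt joints made up 30.3% and 29.5% of wild-type Sμ joins of both orientations and 12.7% and 15.9% of those of ATM KO. Within 1000 bp they made up 22.0% and 19.1% against 7.81% and 6.91%. In plus orientation within 1000 bp the wild-type share was already low, at 11.5% and 9.09%, against 9.09% and 5.39% in ATM KO. From 1000 to 3000 bp in plus orientation the values were 43.5% and 36.4% against 18.2% and 13.5%. Plus-orientation joins upstream of the bait went the other way, with 0% and 14.3% blunt in wild type (5 and 7 junctions) against 16.7% and 15.6% in ATM KO (12 and 96 junctions). Without Sμ junctions within 500 bp of the bait, the difference in the plus-orientation blunt share grew from -11.6 to -17.7 points.

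Joins upstream of the bait, towards the J segments, made up 3.78% and 7.19% of Sμ junctions in wild type and 6.95% and 12.0% in ATM KO. The groups overlapped (exact permutation p = 0.667), and the difference of 4.00 points was 1.46 without ATM KO replicate 2. Nearly all of the ATM KO joins there were in plus orientation, 12 of 13 and 96 of 106, against 5 of 9 and 7 of 10 in wild type. Without junctions within 500 bp of the bait the difference dropped from 4.00 to 0.737 points.

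**Figure D5:**
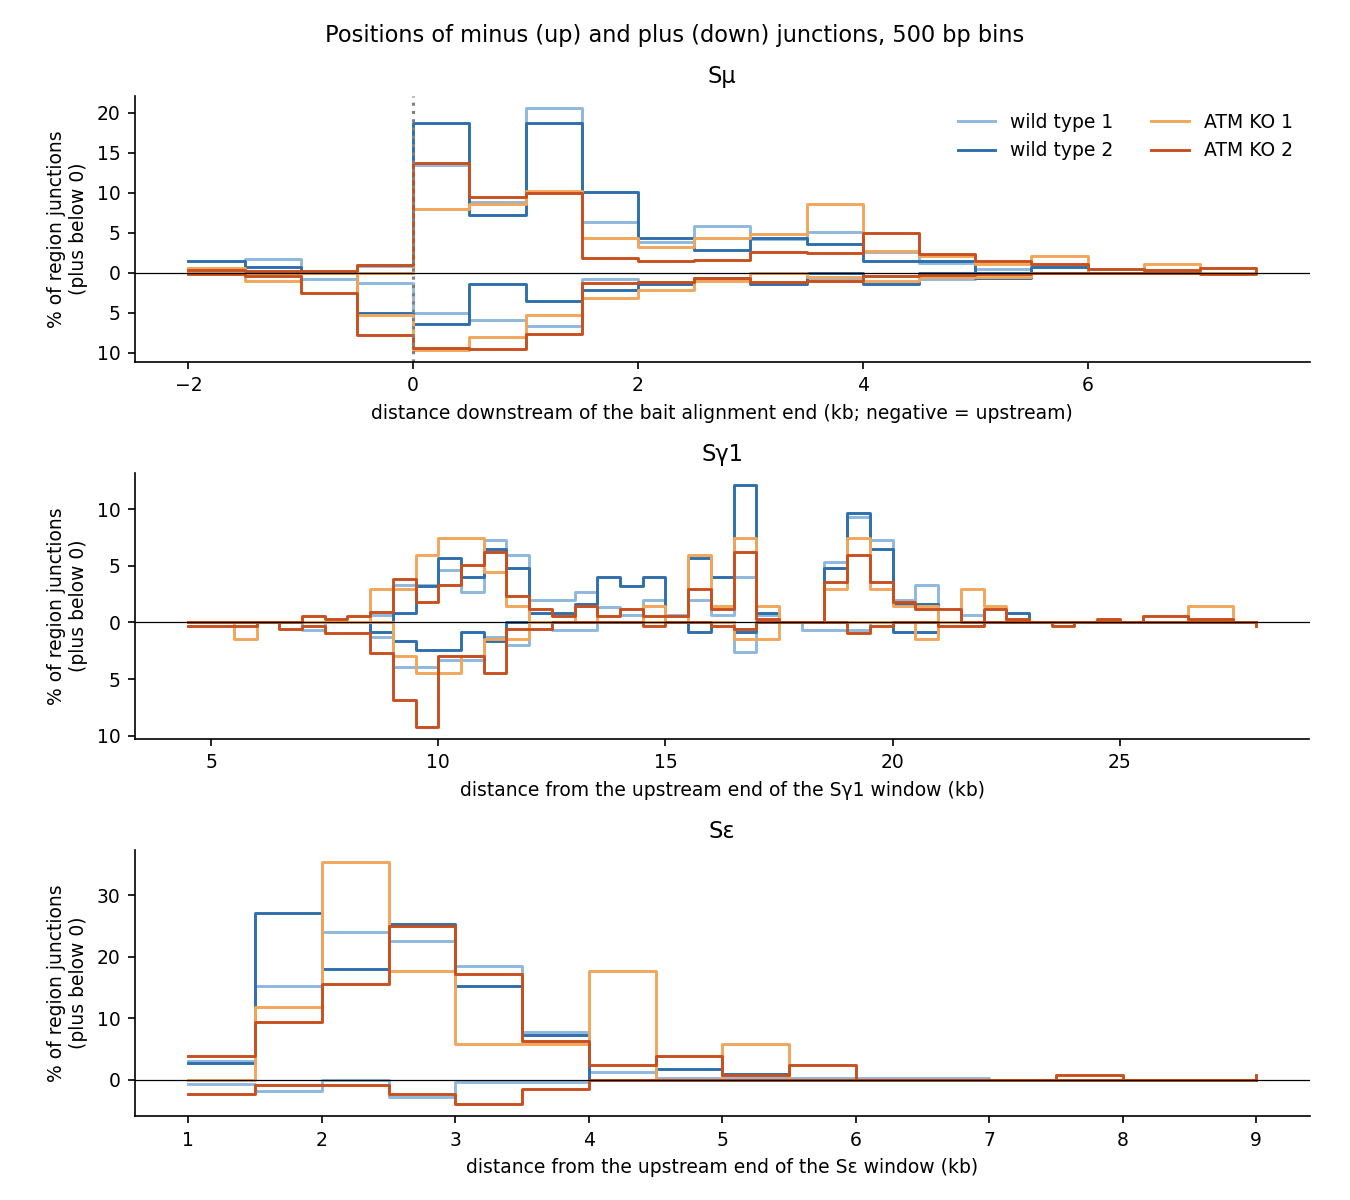
Lines give the percent of each region's junctions per 500 bp bin, minus orientation upwards and plus orientation downwards, 1 line per library; plus-orientation Sε is drawn only for libraries with 5 or more such joins. Minus-orientation Sμ joins of wild type peak higher between 1 and 2 kb from the bait. Plus-orientation Sμ joins lie mostly within 1.5 kb of it in both groups.

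In Sγ1, the median position differed between groups only when orientations were pooled. The pooled median lay at 114575498 and 114572313 in wild type and at 114576453 and 114576792 in ATM KO, 2717 bp further upstream on average without overlap (exact permutation p = 0.3333). Without wild-type replicate 2 the difference was 1124.5 bp, and without wild-type replicate 1 it was 4309.5 bp. Within minus orientation the medians were 114573411 and 114572163 against 114572375 and 114572435, and they overlapped. Within plus orientation they were 114577526 and 114577762 against 114577672 and 114578254, which overlapped too. Plus-orientation Sγ1 joins lie upstream of minus-orientation ones in all 4 libraries, and ATM KO replicate 2 has the largest plus share. ATM KO replicate 1 had a lower plus share than wild-type replicate 1 (23.9% against 25.8%), and its pooled median lay further upstream. The cause of the pooled shift was not tested.

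The bin that passed in Sγ1 was the plus-orientation bin from 114578001 to 114579000. It held 7.95% and 4.03% of wild-type Sγ1 junctions and 7.46% and 16.0% in ATM KO, a rise of 1.20 ± 0.42 log2 units (SE; edgeR adjusted p = 0.0408). The groups overlapped there, and without ATM KO replicate 2 the value was 0.27. The Sγ1 bins with the highest wild-type share, minus orientation from 114568001 and from 114576001, held 16.3% ± 0.302 and 12.3% ± 1.38 (SD, n = 2). In ATM KO they held 9.97% ± 0.673 and 7.29% ± 1.86 (SD, n = 2), and neither passed (edgeR adjusted p = 0.133 and 0.295).

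In Sε the median lay at 114514395.5 and 114514490 in wild type and at 114514437 and 114514246 in ATM KO, with overlap (exact permutation p = 0.667). The 2 minus-orientation bins with the highest wild-type share, from 114514001 and from 114513001, held 44.9% ± 2.35 and 24.4% ± 2.64 (SD, n = 2). In ATM KO they held 46.8% ± 8.71 and 17.6% ± 8.25 (SD, n = 2), and neither passed (edgeR adjusted p = 0.797 and 0.743). The bin downstream of them, from 114512001, held 1.56% and 1.80% of wild-type Sε junctions (5 and 2 junctions) and 17.6% and 6.25% in ATM KO (3 and 8), a rise of 2.16 ± 0.72 log2 units (SE; edgeR adjusted p = 0.0345). This call held under 3 of 11 alternatives, and leaving out 1 library moved the value to between 1.88 and 3.35, the highest without ATM KO replicate 2. The plus-orientation bin from 114513001 passed as well (edgeR adjusted p = 0.034). It counted 2 and 0 junctions against 0 and 7, so it rests on ATM KO replicate 2, without which the sign turned.

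Joins outside the switch windows but inside IgH made up 1.66% and 4.35% of IgH junctions in wild type and 9.06% and 5.94% in ATM KO, without overlap (difference 4.49 points, exact permutation p = 0.3333). The difference was 2.93 points without ATM KO replicate 1. Minus-orientation joins downstream of the Sμ window counted 7 and 9 in wild type and 17 and 38 in ATM KO. Minus-orientation joins upstream of it counted 2 and 4 against 2 and 5. Plus-orientation joins counted 2 and 2 against 5 and 26 downstream, and 1 and 2 against 3 and 16 upstream. As shares of IgH, plus-orientation joins elsewhere were at 0.416% and 1.02% against 2.68% and 2.93%, and minus-orientation joins overlapped at 1.25% and 3.32% against 6.38% and 3.00%. By structure, the minus-orientation joins were 2 insertions, 5 blunt, 9 with 1 to 2 bp and 6 with 3 bp or more in wild type. In ATM KO they were 15, 4, 24 and 19. The plus-orientation joins were 0, 0, 6 and 1 in wild type and 7, 3, 15 and 25 in ATM KO.

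To place these joins against genes, the prey part of each read was matched to mm9 itself, since coordinates of the exchanged segment are shifted there (by 4348 bp at the bait). Of the 2842 junctions, 77.9% matched at a mapping quality of at least 20 in the listed orientation. The share was 99.0% in Sε and 55.4% in Sγ1, where repeats leave many reads without a single best place. In Sμ it was 69.3% and 70.5% in wild type and 71.7% and 84.5% in ATM KO, highest in ATM KO replicate 2. Over all IgH, unmatched joins made up 22.9% and 28.4% in wild type and 27.9% and 18.9% in ATM KO. The counts below thus miss the smallest part of ATM KO replicate 2. In the other IgH list only 5 of 12 joins of wild-type replicate 1 matched, against 14 of 17, 26 of 27 and 80 of 85. The gene intervals were chosen after the values were seen and carry no test.

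Joins inside the Ighm gene counted 1 and 1 in wild type and 6 and 19 in ATM KO, all in minus orientation. That is 0.139% and 0.256% of IgH junctions against 2.01% and 1.33%, on few junctions and without a test. By structure the ATM KO joins in Ighm were 3 insertions, 2 blunt, 12 with 1 to 2 bp and 8 with 3 bp or more. All of these are in the authors' Sμ list. AI324046 (114597876 to 114599443) was the next constant gene among those placed here. Between Ighm and AI324046, 0 and 3 wild-type and 9 and 37 ATM KO joins matched, in minus orientation 0 and 1 against 8 and 23. Other genes and a switch region before AI324046 may lie in this interval and were not placed. Switch joins therefore cannot be told apart from other joins there. The 0 in wild-type replicate 1 sets no upper limit, since 7 of its 12 joins in the other IgH list had no match.

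Joins past a constant gene were also counted for Ighg1, the IgG1 constant gene (114567187 to 114568734). From its end to the next constant gene, annotated as Ighg (114544600 to 114546144), 1 and 3 wild-type and 8 and 16 ATM KO joins matched. Of these, the authors' Sγ1 list held 0 and 0 in wild type and 2 and 8 in ATM KO. A switch region before Ighg may lie in this interval and was not placed, so switch joins to it cannot be told apart here. Inside Ighe, annotated in mm9 as Gm900 (114509484 to 114511358), 3 and 0 wild-type and 0 and 2 ATM KO joins matched, and past it 0 and 3 against 3 and 5. On the other side, matched joins upstream of the nested primer counted 12 and 15 in wild type and 18 and 126 in ATM KO, or 1.66% and 3.84% of IgH junctions against 6.04% and 8.80%. In plus orientation alone they were at 0.832% and 2.05% against 5.03% and 7.75%, and in minus orientation at 0.832% and 1.79% against 1.01% and 1.05%.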

How the data were processed

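HTGTS junction lists were deposited for 6 libraries, 2 per genotype. Per the submitters' processing notes, reads were aligned with Bowtie2 (version not given in the sources used here) to mm9, and per the series' design text a 129 sequence replaced the mm9 IgH switch segment. For each junction the authors deposited other values, namely its coordinate, its orientation and the read positions bounding both alignments. They also deposited counts, as whole junctions per library and bin. Adding empty lines to listed ones gave the authors' bin totals in Sμ, Sγ1 and Sε of the 4 libraries. No junction carried a duplicate mark.

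Listed junctions were counted by region, orientation and structure, and by bins of 1000 bp, keeping features with at least 10 junctions over the 6 libraries. The test on counts was the quasi-likelihood F test of edgeR 4.0.16 (R 4.3.3) over all 6 libraries, with a single dispersion per family, Benjamini-Hochberg adjustment within a family and a threshold of 0.05. Offsets were the listed IgH junctions, the junctions of the region and orientation, or those of the region. SE was taken from the F statistic. Single values were compared by a two-sided exact permutation test over libraries. Prey sequences were matched to mm9 chromosome 12 with bwa 0.7.19, and gene limits come from GENCODE vM1. Named are all classes and bins past the threshold, the structures of each region and orientation, and the 2 bins per region with the highest wild-type share. The members and lists were chosen with earlier results of these data known. The edgeR code was first run on simulated data with known changes. Alternatives were DESeq2 1.42.0, TMM factors, other filters, bins, weights and overlap lengths, a replicate block, and leaving out libraries. Intervals of single-library shares are Clopper-Pearson at 95%, and a count of 0 is given a limit of 3 counts. Without molecular identifiers, PCR reads cannot be taken for independent molecules.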

Additional observations from a re-analysis of the deposited data

How the results depend on the processing

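Depth limits ATM KO replicate 1, which has 298 IgH junctions, 17 of them in Sε, and 2 libraries per group cannot bring an exact permutation p below 0.3333. The 9 joint classes became 1 with DESeq2. The 4 structure classes became 1 with DESeq2. The 6 bins became 0 with DESeq2, 2 without a filter on low counts, 3 with bins of 500 bp and 2 with bins of 2000 bp. Leaving out 1 library gave 7 to 11 joint classes, 0 to 4 structure classes and 0 to 5 bins; there a lone library is assumed to vary like the other groups. Same-numbered libraries of the groups are not tied by the labels, and the correlation of their deviations over 30 classes was -0.44. With the replicate number as a block, 9 joint classes, 3 structure classes and 1 bin passed; differences of single values cannot change under it. The difference between orientations in the blunt Sμ share (-2.14 points) was 2.15 without junctions matched in another library and 4.10 without Sμ junctions within 500 bp of the bait, and ranged from -4.37 to 0.085 when 1 library was left out. The minus-orientation Sμ distance (292.5 bp) was -43.0 bp with pooled junctions and -106.5 to 691.5 bp with 1 library left out. The plus-orientation Sε bin from 114513001 (3.09, log2) was at -2.30 without ATM KO replicate 2 and at 4.74 without wild-type replicate 1. The cause of these changes was not tested. Of the other alternatives for the group results, 120 kept the direction, or gave a count within 1.5 times the one reported. Such a count can match while its direction changes: with TMM factors 0 higher structure classes and 0 higher bins passed. Of the alternatives for single classes and bins, 164 kept the call, 65 kept only the direction and 1 turned it.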
